A study of Mus musculus with 48 samples.

Results

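The 39 genes described here act at the last steps of protein digestion and in the uptake of its products: 20 encode carriers of peptides or amino acids and 19 encode peptidases. They were taken by symbol from a list of named genes, through a GENCODE annotation of the mm10 mouse genome, out of 55401 gene IDs in the table. All 39 were found, and all 39 passed the filter on low counts, which left 15646 genes. Grouped by role, they comprise 8 carriers of the apical membrane, 6 carriers of the basolateral membrane, 5 carriers of general amino acid supply, 1 mitochondrial carrier, 11 peptidases of the brush border, 4 cytosolic peptidases and 4 peptidases of inner compartments.

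RNA was sequenced from jejunum, the segment of small intestine between duodenum and ileum, of mice kept in constant darkness and sampled at circadian time (CT, in hours) 1, 5, 9, 13, 17 and 21. The control group carried floxed alleles of the clock gene Bmal1 (bmal1fl/fl, 24 libraries), and the knockout group was labelled Bmal1iec-/- (23 libraries), which is read here as a loss aimed at intestinal epithelial cells. Each genotype and time had 4 libraries except knockout CT9 with 3, and 1 of the 48 labelled samples was not analysed here. The sources used here give no age, sex, strain, feeding or driver of the recombinase, and no sorting of the tissue into cell types. Whether the libraries came from separate mice is not stated either, so p-values measure only the spread between these samples, which may be technical. In such bulk samples, fewer cells of a type and less RNA per cell cannot be told apart.

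Dietary protein is cut by pancreatic enzymes in the gut lumen, and peptidases anchored in the brush border of enterocytes trim the fragments to short peptides and free amino acids. Dipeptides and tripeptides enter the cell with protons through the carrier encoded by Slc15a1, free amino acids enter through carriers driven by sodium, protons or exchange, and cytosolic peptidases split the peptides taken up. Basolateral carriers then pass amino acids on to the blood. BMAL1 is a transcription factor of the circadian clock that binds E-box sequences together with CLOCK.

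Promoter sequences are shown for the 3 carriers that were lower in the knockout at CT9 (Slc15a1, Slc36a1 and Slc7a8) and for Ggt1, whose daily pattern had the smallest adjusted p for a difference between the genotypes with all libraries, because the clock factors act through short motifs in such regions. The windows come from RefSeq (GRCm38.p6, the reference release of mm10) and run from 250 bases before to 50 bases after an annotated start. Slc15a1 lies on the minus strand at chr14:121505205-121505504, Slc36a1 on the plus strand at chr11:55204090-55204389, Slc7a8 on the minus strand at chr14:54781837-54782136, and the window of Ggt1, chosen out of 4 for that gene because it holds CACGTG, on the plus strand at chr10:75568412-75568711. Capitals mark matches, on either strand, to the E-box CACGTG, its variant CACGTT and the nuclear receptor half-site AGGTCA.
Slc15a1: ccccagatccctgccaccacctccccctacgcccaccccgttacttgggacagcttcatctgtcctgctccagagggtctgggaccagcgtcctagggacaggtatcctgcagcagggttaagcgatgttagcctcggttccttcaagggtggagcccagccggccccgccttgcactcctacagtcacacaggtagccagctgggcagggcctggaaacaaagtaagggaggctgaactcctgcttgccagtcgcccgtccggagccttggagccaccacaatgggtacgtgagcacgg
Slc36a1: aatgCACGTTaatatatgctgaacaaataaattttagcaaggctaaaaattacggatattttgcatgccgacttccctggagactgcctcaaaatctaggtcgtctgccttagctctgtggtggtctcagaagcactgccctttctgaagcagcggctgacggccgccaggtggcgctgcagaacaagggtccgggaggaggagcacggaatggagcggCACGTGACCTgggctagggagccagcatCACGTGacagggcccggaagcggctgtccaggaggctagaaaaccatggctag
Slc7a8: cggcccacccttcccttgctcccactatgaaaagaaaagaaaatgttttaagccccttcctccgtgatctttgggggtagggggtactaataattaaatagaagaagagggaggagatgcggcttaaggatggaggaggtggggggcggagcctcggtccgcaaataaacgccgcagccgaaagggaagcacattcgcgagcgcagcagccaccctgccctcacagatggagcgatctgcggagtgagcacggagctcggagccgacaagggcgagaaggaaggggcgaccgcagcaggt
Ggt1: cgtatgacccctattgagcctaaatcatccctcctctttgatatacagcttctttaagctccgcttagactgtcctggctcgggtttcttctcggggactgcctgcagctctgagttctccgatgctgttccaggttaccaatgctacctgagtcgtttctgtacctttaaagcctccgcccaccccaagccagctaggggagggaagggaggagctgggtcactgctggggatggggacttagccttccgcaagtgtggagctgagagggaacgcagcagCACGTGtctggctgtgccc

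The Slc36a1 window held CACGTT starting 246 bases before the start, CACGTG 31 and 3 bases before it, and AGGTCA on the other strand 27 bases before it, where it overlaps the first CACGTG. The Ggt1 window shown held CACGTG 31 bases after the start, and the other 3 windows of that gene did not hold it, while AGGTCA stood in another of them. The windows of Slc15a1 and Slc7a8 held none of the letters searched. Windows were found for 32 of the 39 genes, 47 windows in all. CACGTG was in the windows of 7 of these 32 genes (Dpp7, Erap1, Ggt1, Lap3, Pepd, Slc25a15 and Slc36a1), that is in 14.9% of their windows, against 7.15% of all 32851 windows of the same length. CACGTT was in windows of Erap1, Slc36a1 and Slc3a2, that is in 6.4% of the 47 windows, against 4.68% of all windows. AGGTCA was in 17.0% of the windows of these genes and in 16.26% of all windows. The D-box letters TTATGTAA and TTATGCAA, which stand in 0.94% and 0.74% of all windows, were in none of them. These matches describe letters in short windows and show no binding.

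Libraries held 4.34 to 6.91 M (mega) counts each; the median was 5.35 M in control and 5.45 M in knockout. Values below are counts per M counts of the genes kept (CPM, after TMM scaling), or CPM per kilobase of exon (RPKM) where levels of different genes are compared. In 5 libraries genes departed from their usual level more widely than elsewhere, and long genes read lower. They were replicates 1 to 3 of knockout CT1, replicate 4 of knockout CT21 and replicate 1 of control CT21. Relative log expression had an interquartile range of 0.518 to 1.07 in these and of 0.219 to 0.411 in the other 42, so the main results are given with and without them. The targeted gene, listed as Arntl, spanned 8.48 to 89.4 CPM over the control libraries, with its daily swing, and 18.4 to 37.0 CPM over the knockout libraries. A 24-h wave fitted to Arntl had a log2 amplitude of 1.62 in control and 0.04 in knockout (difference, edgeR adjusted p = 2.3e-16). A count over the whole gene does not show which exons were present. Nr1d1, another clock gene, was lower in the knockout over all times (log2 fold change −1.94, edgeR adjusted p = 1.1e-17). Of 12 villus enterocyte markers 4 were higher and 3 lower in the knockout (3 and 3 without the 5 libraries), and their summed level was 27678 to 50526 CPM per library in control and 28401 to 55982 CPM in knockout. Each of 10 markers of T cells or intraepithelial lymphocytes was lower (summed 168 to 505 CPM in control against 95.3 to 186 CPM in knockout), as were 8 of 9 markers of B and plasma cells. Fabp6 and Slc10a2, which mark the ileum, summed to at most 5.01 CPM in any library.

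Levels in control jejunum spanned a wide range (RPKM, mean of the 6 group means). The aminopeptidase N gene Anpep was highest at 1381 RPKM, followed by the protease subunit Mep1b (539), the dipeptidyl carboxypeptidase Ace (415), the peptidase Naaladl1 (381) and the aminopeptidase A gene Enpep (286). Among the carriers the highest levels were those of Slc6a19, the main sodium-driven carrier of neutral amino acids (180.3 RPKM), and of Slc15a1 (149 RPKM). The pair that forms the carrier of cystine and basic amino acids, the heavy subunit Slc3a1 and the light subunit Slc7a9, stood at 107 and 99.7 RPKM, close to each other. Carriers used by many growing cells were low: Slc7a5 at 2.67, Slc1a4 at 2.72 and Slc38a1 at 3.31 RPKM. Tmprss15 encodes enteropeptidase, the enzyme of the upper small intestine that activates trypsinogen. It had 0 to 3.15 CPM in control (median 0.578) against 0 to 3.95 CPM in knockout libraries (median 0.321). Many libraries were at or near the detection limit, since a count of 0 allows up to 3 counts, and others stood above it.

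The first comparison was the mean difference between the genotypes over the 6 times. In the knockout 12 of the 39 genes were lower and 7 were higher, and 20 did not pass the test. Among all genes tested 23.3% passed, 12.2% higher and 11% lower, so 48.7% of these genes passed against 23.3% in general. Most of the 39 stood at high levels, and the share among genes of like level was not counted, here or in the tests below. Without the 5 libraries 16 were lower and 7 higher, 23 in all, against 21.4% of all genes. The median log2 fold change, knockout minus control, was −0.10 over the 39 genes and −0.01 over all genes. All 8 apical carriers passed, 5 lower and 3 higher, whereas 1 of 6 basolateral carriers passed (lower). Without the 5 libraries 5 apical carriers were lower and 2 higher, and 3 of the 6 basolateral carriers were lower. Of the 11 brush border peptidases 4 were lower and 3 higher (5 and 3 without the 5 libraries). Of the 4 cytosolic peptidases 1 was higher (1 higher and 1 lower without the 5). Among the 4 peptidases of inner compartments 0 passed by edgeR, by DESeq2 or by limma-voom (1 was lower at an unadjusted edgeR p under 0.05). All adjusted p-values are from edgeR's quasi-likelihood test with Benjamini-Hochberg adjustment over the 15646 genes. The SE of these log2 fold changes lay between 0.043 (Slc25a15) and 0.11 (Slc6a20a), apart from Tmprss15 (0.49).

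**Figure D1:**
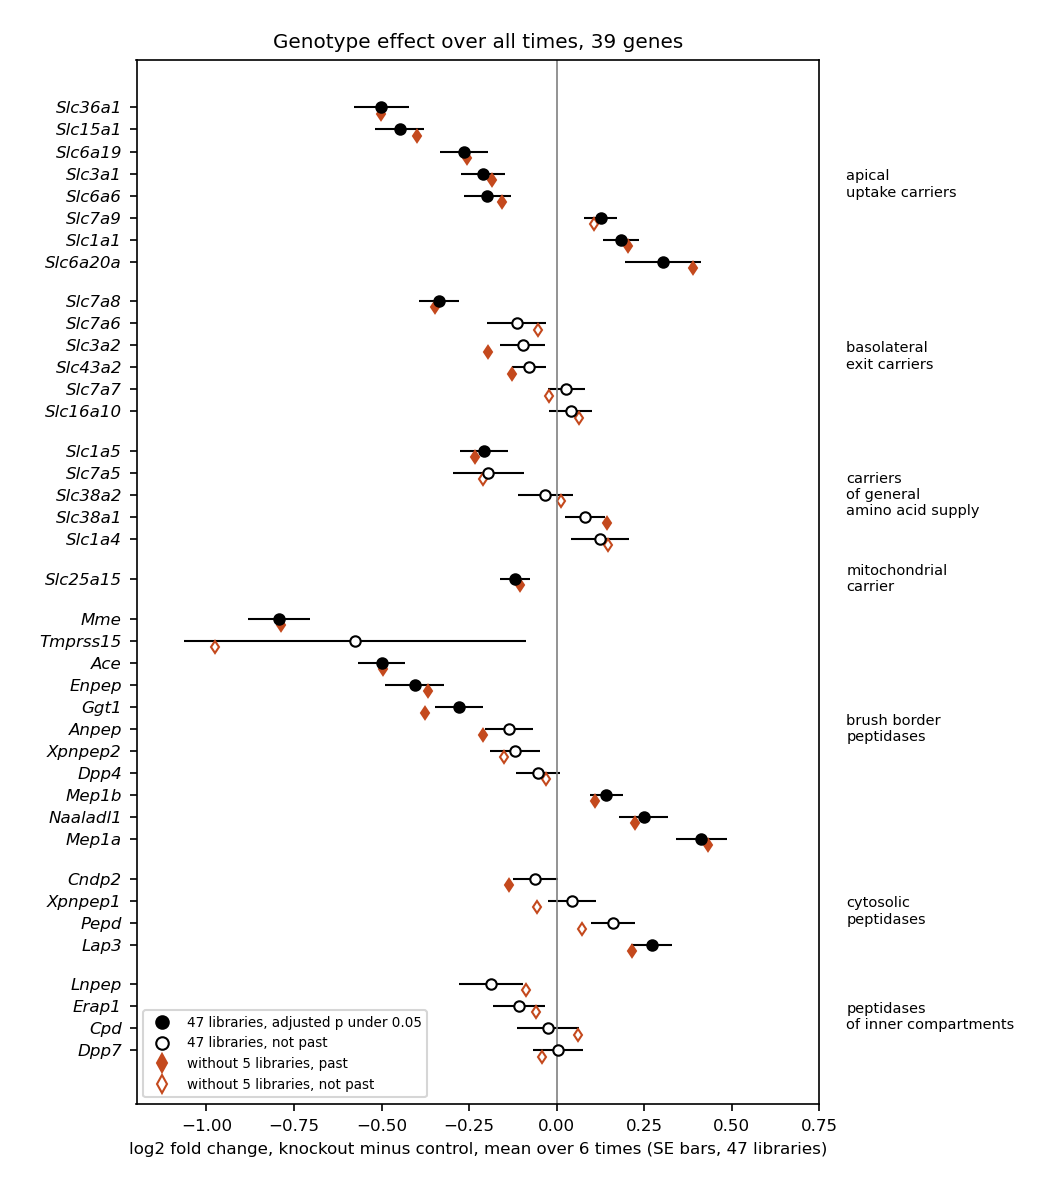
Log2 fold change of each of the 39 genes, knockout minus control averaged over 6 times, grouped by role. Black circles with SE bars are from all 47 libraries and orange diamonds from 42 libraries; filled symbols passed at adjusted p under 0.05, and the apical carriers and brush border peptidases hold members on both sides of 0.

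Among the apical carriers, Slc36a1 and Slc15a1 fell most. Slc36a1 encodes a proton-driven carrier of small amino acids such as glycine and proline (chromosome 11, positions 55204350 to 55236330, plus strand, mm10). Its libraries spanned 142 to 676 CPM in control with a median of 245, and 119 to 338 CPM in knockout with a median of 189. The ranges overlapped over the day. The mean log2 fold change was −0.50 (SE 0.078, edgeR adjusted p = 3.1e-06). Slc15a1 (chromosome 14, positions 121459621 to 121505252, minus strand) spanned 334 to 1214 CPM in control (median 737) and 323 to 720.2 CPM in knockout (median 513). It fell by 0.45 on the log2 scale (SE 0.069, edgeR adjusted p = 2.5e-06).

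The other 6 apical carriers moved less. The mean of Slc6a19 fell from 903 to 739 CPM (a log2 fold change of −0.27, edgeR adjusted p = 0.0030) and Slc3a1 from 242 to 206 CPM (−0.21, 0.011). Slc6a6, the taurine carrier, fell from 313 to 272 CPM (−0.20, 0.028). In the other direction, Slc1a1, the carrier of glutamate and aspartate, rose from 30.5 to 34.8 CPM (0.18, 0.0065), Slc6a20a, a carrier of proline, from 163 to 195 CPM (0.31, 0.036), and Slc7a9 from 267 to 290.3 CPM (0.13, 0.042). The 2 subunits that pair in 1 carrier, Slc3a1 and Slc7a9, thus had fold changes of opposite sign. The last 2 calls were fragile: leaving out 1 library at a time ended the call of Slc7a9 in 31 of 47 refits (highest adjusted p 0.0845) and that of Slc6a20a in 18 (highest 0.0700), and Slc7a9 did not pass without the 5 libraries (0.11, edgeR adjusted p = 0.0601). The span of Slc6a20a also holds Ccr9, a receptor gene of gut lymphocytes, and Slc6a20a has a near copy, Slc6a20b, while the strand setting of the counting is not given, so its value is uncertain. Leaving out knockout CT9 replicate 2 ended the call of Slc6a6 (edgeR adjusted p = 0.0508).

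Of the basolateral carriers, Slc7a8, the light subunit of an exchanger of neutral amino acids, fell from 460.5 to 358 CPM on average (log2 fold change −0.34, SE 0.057, edgeR adjusted p = 1.4e-05). Its heavy subunit Slc3a2 stood at 346 and 321 CPM and did not pass with all libraries (−0.10, 0.30), but passed without the 5 libraries (−0.20, 6.6e-04). Slc43a2, a carrier of branched-chain amino acids, likewise passed only without them (−0.13, edgeR adjusted p = 0.033, against −0.08 and 0.27 with them). The light subunit Slc7a7, which exports basic amino acids, had the same mean in both genotypes, 211 and 212 CPM. Slc16a10, a carrier of aromatic amino acids (288 and 296 CPM), and Slc7a6 (10.2 and 9.41 CPM) did not pass either.

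Carriers of general amino acid supply were low and mostly did not pass. Slc1a5, a glutamine carrier, fell from 71.2 to 61.1 CPM (log2 fold change −0.21, edgeR adjusted p = 0.024). Slc7a5, Slc1a4, Slc38a1 and Slc38a2 had fold changes of −0.20, 0.12, 0.08 and −0.03, and of these only Slc38a1 passed without the 5 libraries (0.14, 0.021). Slc25a15, which carries ornithine across the inner mitochondrial membrane, fell from 318 to 294 CPM (−0.12, edgeR adjusted p = 0.040), a call that 13 of 47 refits without 1 library ended (highest adjusted p 0.0734).

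Brush border peptidases moved in both directions. Mme encodes neprilysin, an endopeptidase (chromosome 3, positions 63241537 to 63386030, plus strand), and had the strongest decrease among those that passed. Its libraries spanned 525 to 1753 CPM in control (median 1260.0) and 330.3 to 954 CPM in knockout (median 728), with a log2 fold change of −0.79 (SE 0.089, edgeR adjusted p = 2.9e-09). Ace, which removes dipeptides from the end of peptides (chromosome 11, positions 105967945 to 105989964, plus strand), spanned 1415 to 3277 CPM in control (median 2367) and 915 to 2146 CPM in knockout (median 1539). It fell by 0.50 (SE 0.068, edgeR adjusted p = 2.4e-07). Enpep, which removes acidic residues (chromosome 3, positions 129269175 to 129332720, minus strand), spanned 495 to 2103 CPM in control (median 1241) and 390.2 to 1397 CPM in knockout (median 998), and fell by 0.41 (SE 0.083, edgeR adjusted p = 2.6e-04). In each of these 3 genes the genotype ranges overlapped over the day. Ggt1, which transfers the glutamyl group of glutathione (chromosome 10, positions 75561604 to 75586200, plus strand), spanned 413 to 803 CPM in control (median 639) and 415 to 932 CPM in knockout (median 474). Its mean fell from 634 to 520.3 CPM (−0.28, edgeR adjusted p = 0.0019).

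The meprin subunits went the other way. Mep1a, the alpha subunit of this metalloprotease (chromosome 17, positions 43474324 to 43502812, minus strand), spanned 129 to 294 CPM in control (median 207) and 194 to 353 CPM in knockout (median 278). It rose by 0.41 (SE 0.073, edgeR adjusted p = 2.5e-05), the largest increase among those that passed. The beta subunit Mep1b rose from 1416 to 1562 CPM (0.14, edgeR adjusted p = 0.021), a call that ended without control CT9 replicate 3 (0.0523) or knockout CT9 replicate 4 (0.0546). Naaladl1 rose from 948 to 1126 CPM (0.25, edgeR adjusted p = 0.0063). Anpep, Dpp4 and Xpnpep2 did not pass (−0.14, −0.05 and −0.12). Anpep, the most abundant of the group, passed without the 5 libraries (−0.21, edgeR adjusted p = 0.0022) and also without knockout CT21 replicate 4 alone (0.0118), in which it read 8179 CPM against 4003 to 4706 CPM in the other 3 libraries of that group.

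Among the cytosolic enzymes, Lap3, an aminopeptidase, rose from 729 to 871 CPM (log2 fold change 0.27, edgeR adjusted p = 4.9e-04). Pepd, which splits dipeptides that end in proline (523 and 589 CPM), missed the threshold (0.16, 0.059). Cndp2, a dipeptidase, had −0.06 with all libraries and −0.13 without the 5 (edgeR adjusted p = 0.016). Xpnpep1 had 0.04 with all libraries and −0.056 without the 5, and passed in neither case. Erap1, Lnpep, Cpd and Dpp7, which trim peptides in the endoplasmic reticulum, vesicles, Golgi and lysosome, had fold changes between −0.19 and 0.00 and stood at 154, 94.7, 117 and 14.7 CPM in control.

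The next question was at which times the genotypes differed. At CT9, 6 of the 39 genes were called, each lower in the knockout, against 3.6% of all genes called, 1.49% higher and 2.11% lower. These were Slc15a1, Slc36a1, Slc7a8, Mme, Ace and Ggt1. At CT13, 5 were lower (Mme, Ace, Ggt1, Slc1a5 and Xpnpep2) and 1 was higher (Slc1a1), against 3.39% of all genes, 1.35% lower and 2.04% higher. At CT17 Mme and Ace were lower, against 2.09% of all genes, 1.41% lower and 0.684% higher. At CT5 Ace was lower, against 0.837% of all genes, 0.339% lower and 0.499% higher. At CT21, 0 of the 39 passed by edgeR, by DESeq2 or by limma-voom, against 1.43% of all genes by edgeR (0.677% higher and 0.754% lower), and 8 had an unadjusted edgeR p under 0.05, 6 higher and 2 lower. At CT1, 7 were called, each higher in the knockout, against 20.7% of all genes, 12.6% higher and 8.07% lower.

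**Figure D2:**
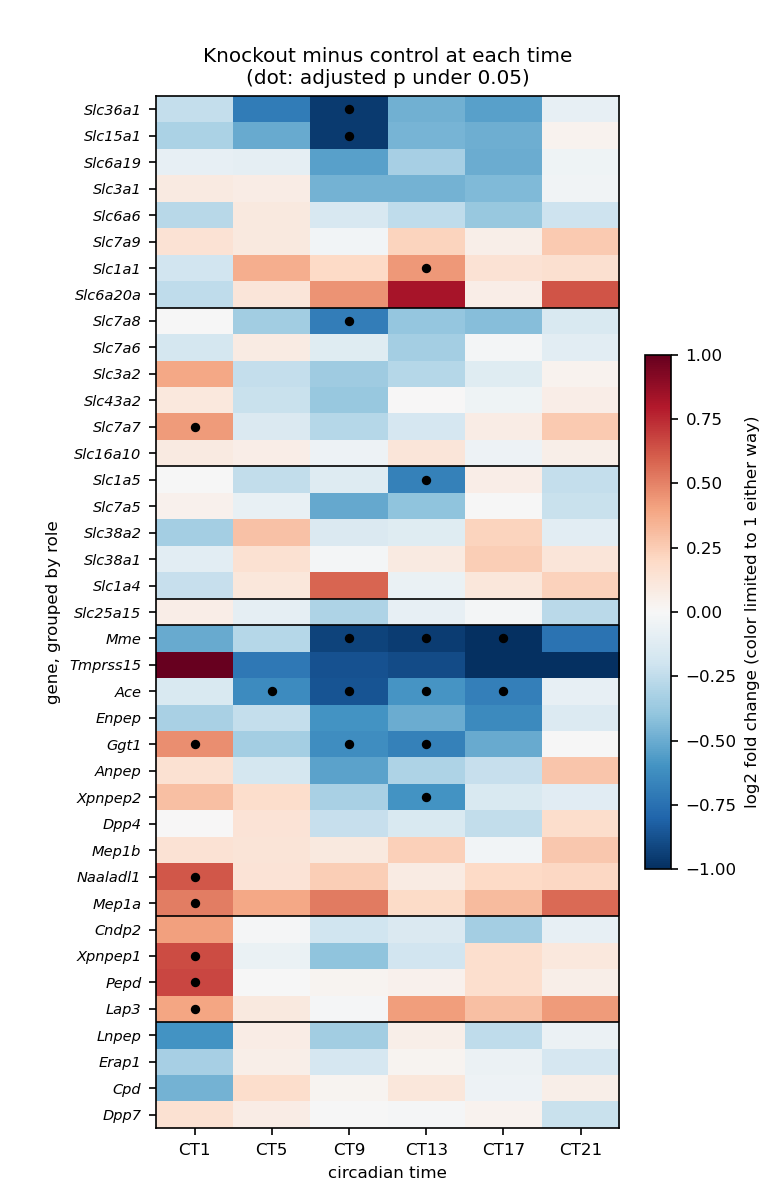
Log2 fold change, knockout minus control, of each of the 39 genes (rows, grouped by role) at each circadian time (columns), with color limited to 1 either way. Dots mark adjusted p under 0.05. Blue cells, lower in knockout, gather at CT5 to CT17 among the carriers Slc36a1, Slc15a1 and Slc7a8 and the peptidases Mme, Ace and Ggt1.

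The CT9 difference was clear library by library in the peptide carrier. Slc15a1 read 1105, 1214, 846 and 1077 CPM in control and 570.4, 414 and 658 CPM in knockout. Every control library stood above every knockout library, and the log2 fold change was −0.95 (SE 0.183, edgeR adjusted p = 6.5e-04). At CT21 the same gene read 334, 482, 428 and 548 CPM in control and 578, 452, 452 and 356 CPM in knockout, so the groups overlapped (0.04, edgeR adjusted p = 0.99). Slc36a1 at CT9 read 536, 676, 499.7 and 477 CPM in control against 329, 179 and 338 CPM in knockout, again without overlap (−0.96, edgeR adjusted p = 0.0030). At CT5 it read 456, 437, 368 and 377 CPM against 198, 229, 313 and 267 CPM; these did not overlap either, yet the difference missed the threshold (−0.70, 0.059). Slc7a8 at CT9 read 553, 600.4, 571 and 638 CPM in control and 368, 298 and 429 CPM in knockout (−0.69, edgeR adjusted p = 0.0032). The 3 carriers were lowest in the same library, knockout CT9 replicate 3, and without it the calls of Slc36a1 (0.0825), Slc7a8 (0.0726) and Ace (0.0549) at CT9 ended, and 1 of the 39 genes was called at CT9.

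**Figure D3:**
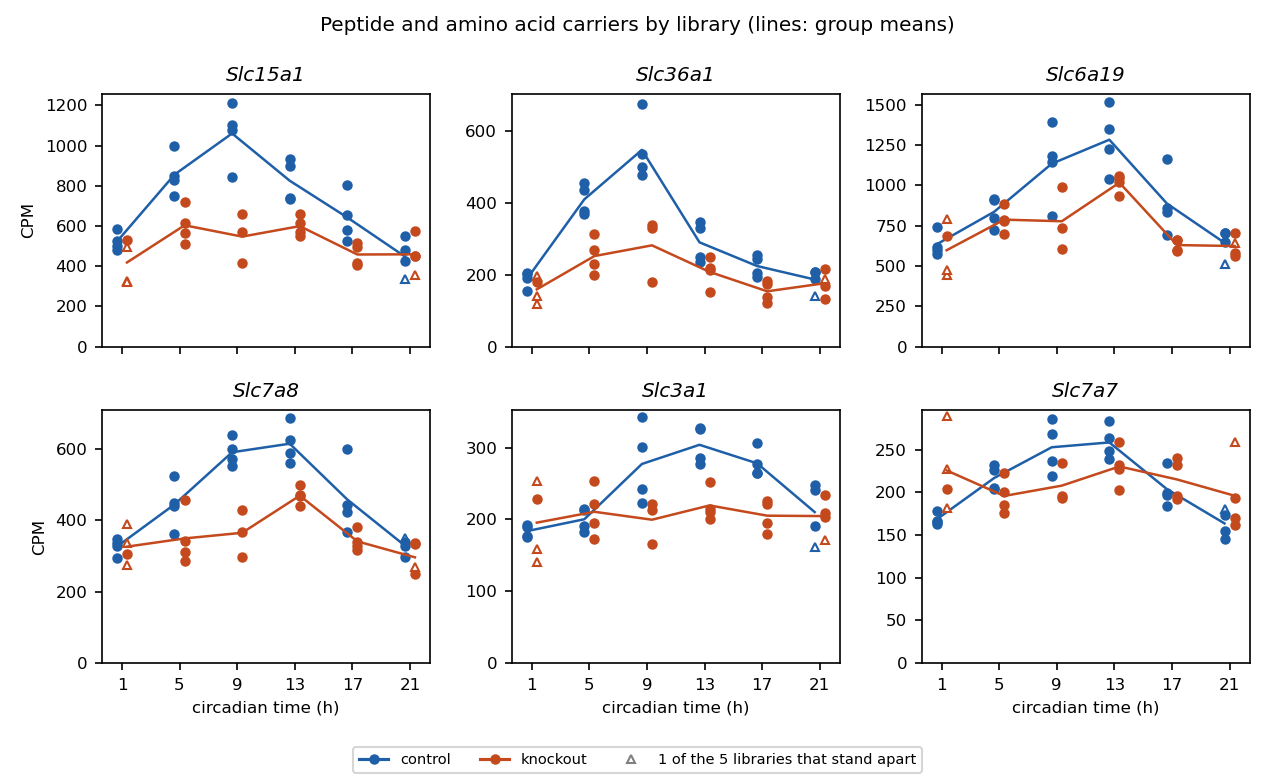
CPM of 6 carriers in each library against circadian time, with group means joined by lines (blue control, orange knockout, triangles the 5 libraries that stand apart). Control libraries of Slc15a1, Slc36a1 and Slc7a8 rise above the knockout libraries at CT9, and the genotypes overlap at CT21.

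Among the peptidases, the difference of Mme was largest at CT17, where control libraries read 1279, 1381, 1563 and 1679.8 CPM and knockout libraries 624, 559, 656 and 469 CPM. Every control library stood above every knockout library, and the log2 fold change was −1.35 (edgeR adjusted p = 7.9e-05). Ace at CT9 read 3277, 2915, 2587 and 2605 CPM in control and 1672, 1224 and 1795 CPM in knockout (−0.86, edgeR adjusted p = 0.0023), and at CT13 2387, 2579, 2424 and 2347 CPM against 1636, 1659.7, 1539 and 1639 CPM (−0.59, 0.033). At CT21 it read 1471, 1423, 1415 and 1720.4 CPM in control and 1790.4, 1315, 1264 and 1335 CPM in knockout, with overlap. Ggt1 at CT13 read 764, 803, 719 and 721 CPM in control and 482, 439, 423 and 539 CPM in knockout, without overlap (−0.68, edgeR adjusted p = 0.011).

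Several calls at single times rested on few libraries. Leaving out any 1 of the 8 libraries of CT13 ended the call of Ace at that time (highest adjusted p 0.11), 12 of 47 refits ended its call at CT5 (highest 0.271) and 4 its call at CT17 (control replicates 3 and 4, knockout replicates 1 and 4, highest 0.12). The call of Ggt1 at CT9 ended without control CT9 replicate 1 or 2 or any knockout CT9 library (highest 0.16), and that of Mme at CT9 without control CT9 replicate 2 or knockout CT9 replicate 2 or 3 (highest 0.142). The call of Slc1a5 at CT13 rested on control CT13 replicate 2, which read 149.6 CPM against 75.4 to 83.9 CPM in the other 3 control libraries, and ended without it (edgeR adjusted p = 0.232). Those of Xpnpep2 and Slc1a1 at CT13 each ended in 7 of 47 refits. The calls of Slc15a1 at CT9, Mme at CT13 and CT17 and Ggt1 at CT13 held in all 47 refits.

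**Figure D4:**
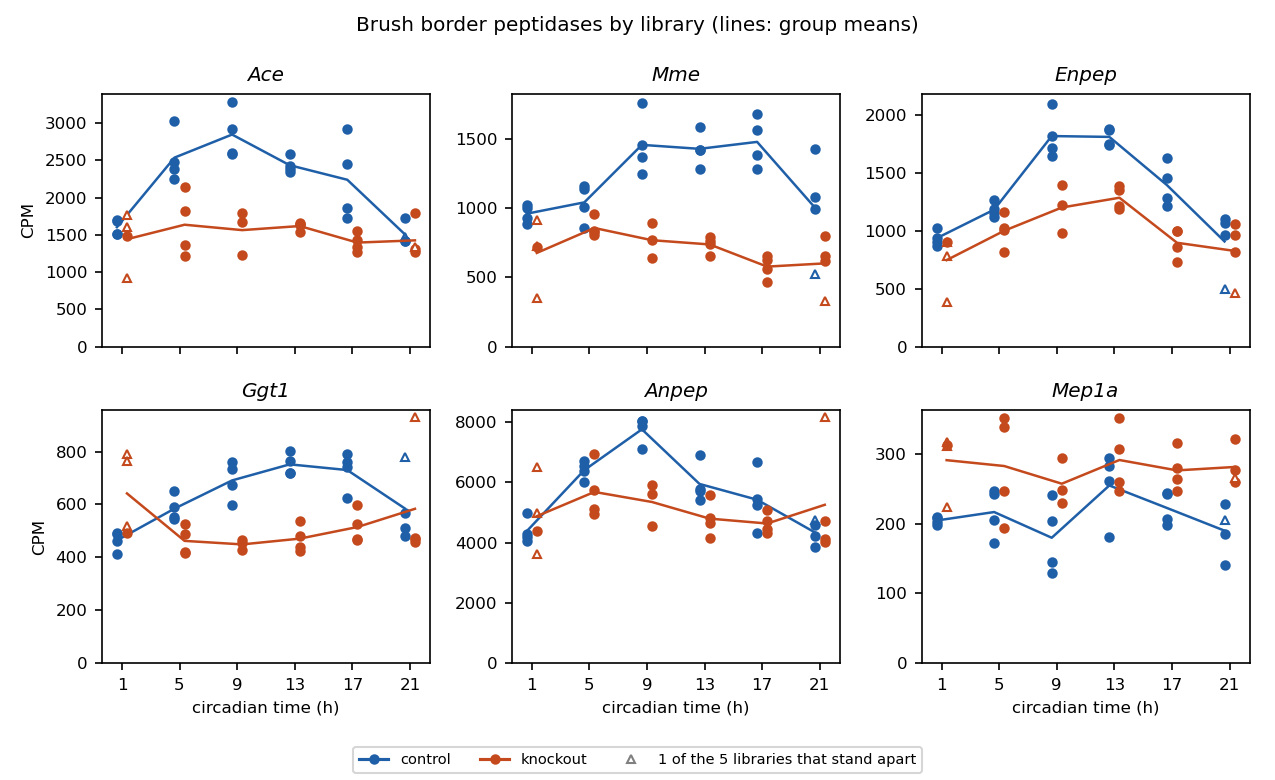
CPM of 6 brush border peptidases in each library against circadian time, drawn as for the carriers. The knockout means of Ace, Mme and Enpep lie below the control means at all 6 times, and that of Ggt1 at CT5 to CT17. The control mean of Anpep peaks at CT9, and the knockout mean of Mep1a lies higher at all 6 times.

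At CT1 the 7 genes that were higher in the knockout were Slc7a7, Ggt1, Mep1a, Naaladl1, Lap3, Pepd and Xpnpep1. Pepd read 374, 451, 518 and 526 CPM in control and 887, 658, 849 and 576 CPM in knockout (log2 fold change 0.67, edgeR adjusted p = 0.0029). Ggt1 read 413, 462, 488 and 492 CPM against 791, 519.8, 765 and 491 CPM (0.47, edgeR adjusted p = 0.039). The knockout library closest to control in both genes was replicate 4, the only one of that group not among the 5 that stand apart. Without the 5 libraries 0 of the 39 genes were called by edgeR at CT1 (2 at an unadjusted p under 0.05), against 0.243% of all genes. A single knockout library, replicate 4, was left at that time and is assumed to vary like the other groups. At the other times more genes were then called: 4 lower at CT5, against 1.71% of all genes, 13 lower at CT9 (6.25%), 11 lower and 2 higher at CT13 (7.01%), 10 lower at CT17 (5.07%) and 1 lower, Mme, at CT21 (1.75%).

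The last comparison concerned daily rhythm, fitted as a 24-h wave per genotype. In control 21 of the 39 genes had a rhythm past the threshold, against 20.5% of all genes, and in knockout 10 had one, against 14.6%. Their fitted amplitudes in control, from mid-level to peak, were 0.20 to 0.77 on the log2 scale. Peaks fell between CT4.56 and CT14.0, and 20 of the 21 lay between CT7 and CT15, from the second part of the animals' rest phase into the start of their active phase. By role, the rhythmic genes in control were 7 of 8 apical carriers, 4 of 6 basolateral carriers, 1 of 5 carriers of general supply, 7 of 11 brush border peptidases, 2 of 4 cytosolic peptidases and 0 of 4 peptidases of inner compartments. Of the 21, 8 passed in the knockout too. Over all 39 genes the fitted amplitude was lower in the knockout in 28 and higher in 11. Over all genes tested the median of knockout minus control amplitude was 0.0016, so lower and higher amplitudes were about equally common. The split of the 39 was not repeated without the 5 libraries. Over the 39 genes the median amplitude was 0.24 in control and 0.15 in knockout, against 0.17 and 0.18 over all genes. A rhythm past the threshold in 1 genotype does not show a difference between genotypes, and the test of the difference itself passed for 3 genes, against 1.5% of all genes.

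**Figure D5:**
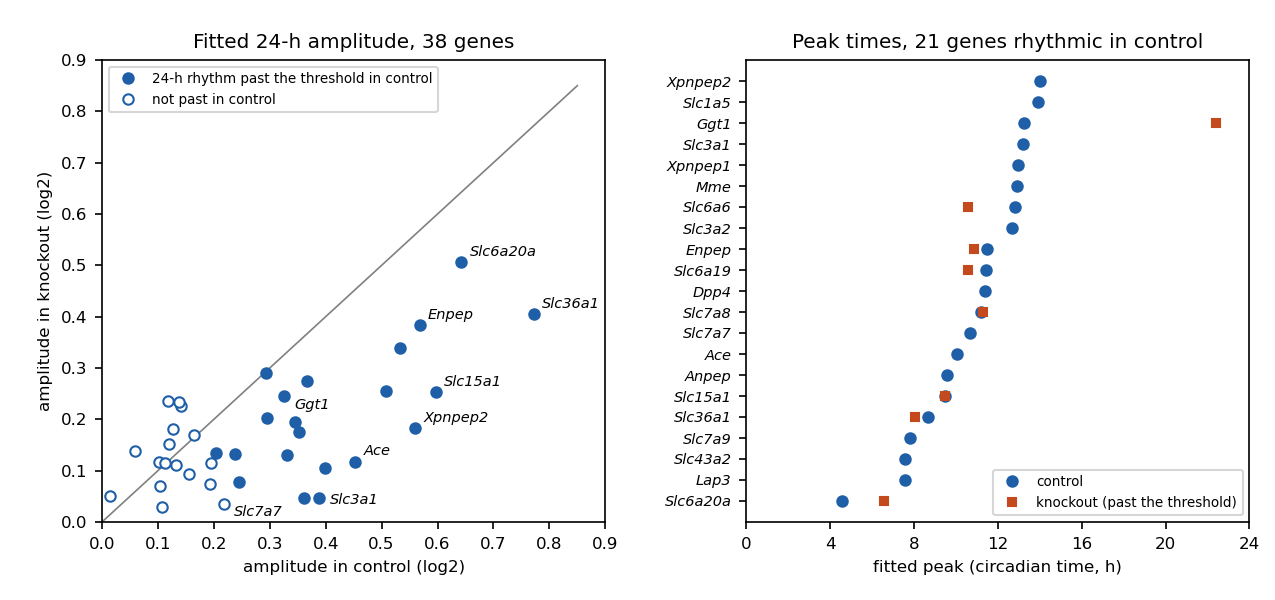
Left, fitted 24-h amplitude (log2) in knockout against control for 38 of the genes, Tmprss15 left out, with a line of equal amplitude; filled points were rhythmic in control, and over all 39 genes the knockout amplitude was lower in 28 and higher in 11. Right, fitted peak times (CT, h) of the 21 genes rhythmic in control, with squares for the 8 that passed in knockout.

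Among the 21 genes rhythmic in control, the widest daily swing was that of Slc36a1. Its control group means ran from 187 CPM at CT21 to 547 CPM at CT9, 2.93-fold. Its fitted amplitude was 0.77 in control with a peak at CT8.66 (edgeR adjusted p = 4.4e-09) and 0.40 in knockout with a peak at CT8.06 (0.0059). The difference between the fits did not pass (edgeR adjusted p = 0.29). Slc15a1 swung 2.37-fold in control and 1.44-fold in knockout, with amplitudes of 0.60 (edgeR adjusted p = 2.7e-08) and 0.25 (0.038) and peaks at CT9.47 and CT9.48. The difference did not pass with all libraries (0.18) but passed without the 5 (edgeR adjusted p = 0.014), and 11 of 47 refits without 1 library ended the call in knockout (highest 0.0949). The knockout rhythm of Slc15a1 also lost its call without the 5 (amplitude 0.17, edgeR adjusted p = 0.15), with time as a factor (0.061) and with no filter on low counts (0.064). Enpep, Slc6a19, Slc7a8, Slc6a6 and Slc6a20a were rhythmic in both genotypes, with peaks in control at CT11.5, CT11.4, CT11.2, CT12.8 and CT4.56. Slc6a20a was the only one of the 21 that peaked before CT7.

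With all libraries Ggt1 had the smallest adjusted p for the difference in rhythm, and without the 5 libraries Mme had it. In control Ggt1 rose from a group mean of 464 CPM at CT1 to 752 CPM at CT13, with a fitted peak at CT13.3 (amplitude 0.33, edgeR adjusted p = 0.0012). In the knockout its group means were 642 CPM at CT1, 449 CPM at CT9 and 584 CPM at CT21, with a fitted peak at CT22.4 (amplitude 0.24, 0.033). The difference passed (edgeR adjusted p = 0.0014), and so did the genotype by time interaction with time as a factor (0.013), which passed for 1.18% of all genes. The knockout rhythm rested on libraries that stand apart: without the 5 its amplitude was 0.07 (edgeR adjusted p = 0.50), and it did not pass without knockout CT21 replicate 4 alone (0.13), whereas the difference between genotypes still passed without the 5 (0.0016).

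Slc7a7 and Slc3a1 were the other 2, and both are given at the times of their highest and lowest control means. Slc7a7 (chromosome 14, positions 54369442 to 54417780, minus strand) read 239, 283, 248 and 264 CPM at CT13 and 181, 146, 155 and 174 CPM at CT21 in control. In the knockout it read 259, 228, 203 and 233 CPM at CT13 and 169.7, 194, 162 and 259 CPM at CT21. The knockout values overlapped only through replicate 4 of CT21 (259 CPM), which is among the 5 libraries, and without it CT21 lay below CT13 as in control. Its amplitude was 0.36 in control (peak CT10.7, edgeR adjusted p = 3.4e-06) and 0.05 in knockout (0.76), and the difference passed (0.025) but did not without the 5 libraries (0.082), where the knockout rhythm passed (amplitude 0.17, edgeR adjusted p = 0.037), nor without knockout CT9 replicate 2 (0.0585), knockout CT9 replicate 3 (0.0546) or knockout CT21 replicate 4 (0.0529). Slc3a1 (chromosome 17, positions 85028376 to 85064236, plus strand) read 277, 327, 286 and 326 CPM at CT13 and 193, 175, 178 and 189 CPM at CT1 in control. In the knockout it read 211, 252, 201 and 214 CPM at CT13 and 254, 158, 141 and 229 CPM at CT1. The control values did not overlap and the knockout values did, also with CT1 replicate 4 (229 CPM) as the single CT1 library outside the 5. Its amplitude was 0.39 in control (peak CT13.2, edgeR adjusted p = 7.9e-06) and 0.05 in knockout (0.82). The difference passed only narrowly (edgeR adjusted p = 0.048) and was lost in 43 of 47 refits without 1 library (highest 0.205), but passed without all 5 libraries (0.0018). It also did not pass by RLE scaling (0.060), with no filter (0.064), with a minimum count of 30 (0.064), by limma-voom (0.071) or with time as a factor (0.26). The spans of Slc7a7 and Slc3a1 overlap those of Oxa1l and Prepl, so reads may have been shared between them.

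Rhythms that passed in control alone included those of Ace (amplitude 0.45 in control and 0.12 in knockout), Anpep (0.40 and 0.11), Xpnpep2 (0.56 and 0.18), Mme (0.37 and 0.27) and Dpp4 (0.35 and 0.20). The test of the difference did not pass for any of these 5 with all libraries (edgeR adjusted p = 0.15, 0.079, 0.089, 0.096 and 0.69), and that of Mme passed without the 5 libraries (2.0e-04). Anpep, the most abundant, had control group means from 4341 CPM at CT21 to 7764 CPM at CT9. Pepd and Slc1a1 passed in knockout and not in control (amplitude 0.24 and 0.18), and neither passed in knockout without the 5 libraries (edgeR adjusted p = 0.15 and 0.11). The remaining 16 genes passed in neither genotype, among them Mep1a, Mep1b and Naaladl1, the 3 brush border peptidases that were higher in the knockout over all times. Without the 5 libraries 25 of the 39 were rhythmic in control, against 29% of all genes, 13 in knockout, against 10.4%, and 4 differed (Ggt1, Mme, Slc15a1 and Slc3a1), against 1.59%.

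Levels of cell type markers moved with some of these groups. The summed villus enterocyte markers were 41059 to 44628 CPM in control against 36012 to 37838 CPM in knockout at CT13, 40836 to 50526 CPM and 35224 to 39202 CPM at CT17, and 27678 to 33668 CPM and 38299 to 55982 CPM at CT1. At CT13 and CT17 the knockout sums were thus below all control sums, and at CT1 above them. Replicates 1 to 3 of knockout CT1 are among the 5 libraries that stand apart. Only replicate 4 of that group is outside the 5, and it too stood above all control CT1 sums, since the lowest knockout sum was 38299 CPM. The groups of CT13 and CT17 hold none of the 5. The scaling behind the sums was not repeated without the 5. The ranges overlapped at CT5 (29692 to 33884 CPM in control against 31365 to 34497 CPM in knockout), CT9 (28249 to 39228 and 28401 to 33778 CPM) and CT21 (36096 to 48441 and 34350 to 53204 CPM). Over all times Fabp2 (−0.31, edgeR adjusted p = 0.0014) was among the enterocyte markers that fell and Alpi (0.32, 1.4e-04) among those that rose. Of 8 myeloid markers 3 were lower and 1 higher (6 and 1 without the 5 libraries), with sums of 331 to 554 CPM per library in control and 270.3 to 443 CPM in knockout. Of 9 fibroblast and endothelial markers 3 were lower (5 without the 5), with sums of 434 to 735 CPM per library in control and 304 to 615 CPM in knockout. Of 8 enteroendocrine markers 4 were higher (5 without the 5), with sums of 331 to 616 CPM per library in control and 372 to 810.0 CPM in knockout. The lower lymphocyte markers are given above. The part of any of these in the results on peptidases and carriers was not tested.

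Other genes of the same pathway were read from lists. Of 26 other amino acid and peptide transporters tested, 3 were higher and 2 lower over all times, that is 19.2% against 23.3% of all genes (4 higher and 1 lower of 28 without the 5 libraries). Slc38a8 rose from 0.799 to 4.33 CPM (log2 fold change 2.67, edgeR adjusted p = 1.1e-14), a fold that depends on the prior count of the fit since control libraries held few counts. Also higher were Slc6a20b, which went from 3.56 to 5.54 CPM (0.73, 0.0012), and Slc38a6, from 14.7 to 17.0 CPM (0.22, 0.011), whereas Slc38a9, a lysosomal amino acid sensor, fell from 17.2 to 14.5 CPM (−0.25, 0.0032) and did not pass without the 5 libraries (−0.15, edgeR adjusted p = 0.053). All of these were of low level. Of 3 partner genes tested, 2 were higher: Slc9a3, the sodium and proton exchanger of the brush border which exports protons into the lumen, rose from 252 to 427 CPM (0.73, edgeR adjusted p = 2.1e-07), and Pdzk1, a scaffold of brush border carriers, from 189 to 251 CPM (0.40, 2.0e-07), and both also passed without the 5 libraries. Of 36 other peptidases tested, 6 were higher and 2 lower, 22.2% against 23.3% of all genes, and without the 5 libraries 2 were higher and 6 lower. The 4 with the smallest adjusted p were Ggt5 (−0.35, edgeR adjusted p = 4.2e-04), Cpm (0.28, 0.0022), Cpq (−0.20, 0.0097) and Blmh (0.19, 0.014), and each kept its direction and passed without the 5.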

How the data were processed

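RNA from jejunum of 12 genotype and time groups was sequenced as polyadenylated RNA (NucleoSpin RNA purification and the TruSeq Stranded mRNA kit, per the labels' protocols). The values in the deposited table are unscaled read counts that the authors made, with 1 column per library. Reads were counted with featureCounts 1.4.6 and aligned to mm10, with STAR 2.7.5c, Trimmomatic 0.39, FastQC 0.11.5, SAMtools 1.3.1 and DESeq2 1.22.0 among the tools listed, per the submitters' processing notes. Strand setting, annotation release and handling of multiply mapped reads were not given in the sources used here, so genes that overlap another gene or have a near copy are uncertain. Of the gene IDs, 54349 matched the GENCODE annotation with their version, 792 without it and 260 not at all.

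Low-count genes were dropped by filterByExpr in edgeR 4.0.16 (minimum count 10, minimum total 15, under R 4.3.3), libraries were scaled by TMM, and a quasi-likelihood model with 1 mean per group (35 residual degrees of freedom, robust) was fitted to all 47 libraries, so all groups share 1 estimate of spread. Contrasts are knockout minus control, over the mean of the 6 times and at each time. The rhythm tests came from 1 wave of 24 h fitted to each genotype, as cosine and sine terms (41 residual degrees of freedom). P-values were adjusted by the Benjamini-Hochberg method over 15646 genes, with a threshold of 0.05. Genotype CPM values without a range are means of 6 group means, and fold changes average log2 differences. The fits were tested on simulated data. Total counts were 4.34 to 6.91 M (mega) per library (median 5.43 M), and the floor that a count of 0 allows was 3 counts, which covers counting error only, since without molecular identifiers reads cannot be taken as separate molecules. Libraries of 1 group differed beyond sampling noise in all 69 pairs (chi-square per degree of freedom at least 3.31, median 7.81).

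Alternatives were RLE and upper quartile scaling, no filter, a minimum count of 30, DESeq2 1.42.0, limma-voom (limma 3.58.1), time as a factor, leaving out the 5 libraries that stand apart, and leaving out each library in turn. The members, the gene lists and the tests were chosen with earlier results of these data known. Values over the libraries were given for members that passed over all times with a log2 fold change of at least 0.4 in size or passed the difference in rhythm (9 genes), and from each other list at most the 4 genes with the smallest adjusted p over all times.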

Additional observations from a re-analysis of the deposited data

Results flagged for a closer look

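Within single groups of 4 libraries, the gap between 1 library and the nearest of the others was checked. This covered the 9 genes that met the rule for giving values over the libraries. Slc7a8 and Pepd, also given library by library at 1 time, were not checked. In 99 groups, 3 values stood apart beyond the 95% limit. Chance flags about 1 in 20 groups. Ace in knockout CT21 replicate 1 had 1790.4 CPM against 1264 to 1335 CPM in the other 3 libraries. Mep1a in knockout CT1 replicate 2 had 224 CPM against 312 to 318 CPM. Ggt1 in knockout CT21 replicate 4 had 932 CPM against 458 to 474 CPM, and this library and knockout CT1 replicate 2 are among the 5 that stand apart.

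The genotypes differed in daily rhythm by the test of the difference itself for Ggt1 (edgeR adjusted p = 0.00138), Slc7a7 (0.0249) and Slc3a1 (0.0481). The effect of genotype on Ggt1 also differed across the 6 times when time was a factor (edgeR adjusted p = 0.0131).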

How the results depend on the processing

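No paired analysis was possible because replicate numbers were given in accession order and pair no libraries. Of the 39 genes, the counts called that moved by more than 1.5 times were, without a filter, 4 higher over all times. At CT5 they were 2 by upper quartile scaling, with a minimum count of 30 and by DESeq2. For the difference in rhythm they were 6 by DESeq2 and 1 with time as a factor. Without the 5 libraries they were 0 at CT1 and 4 at CT5, then 13 both at CT9 and at CT13, 10 at CT17 and 1 at CT21. Over all genes the counts called were, without a filter, 2097 at CT1, 349 at CT13 and 196 at CT17. Without the 5 libraries they were 40 at CT1 and 282 at CT5, and then 1029 (CT9), 1154 (CT13) and 835 (CT17). Xpnpep1 reversed from 0.04 to −0.056 over all times without the 5 libraries and passed in neither. Other settings also ended calls of single genes. Upper quartile scaling ended those of Ggt1 at CT9 (edgeR adjusted p = 0.056), Slc1a1 at CT13 (0.065), Slc7a9 over all times (0.069), the control rhythm of Slc1a5 (0.055), the knockout rhythm of Slc1a1 (0.052) and, at CT1, Lap3 (0.062), Ggt1 (0.062) and Mep1a (0.051). Without a filter those of Slc1a1 at CT13 (0.18), of Mep1b (0.068), Slc6a20a (0.083), Slc7a9 (0.11) and Slc25a15 (0.21) over all times, of Lap3 at CT1 (0.065) and of the knockout rhythms of Pepd (0.052) and Slc1a1 (0.15) ended. RLE scaling ended Slc7a9 over all times (0.051) and a minimum count of 30 ended Lap3 at CT1 (0.054). By limma-voom the control rhythm of Slc1a5 (0.068) and the knockout rhythms of Pepd (0.069), Ggt1 (0.063) and Slc1a1 (0.061) ended. With time as a factor the knockout rhythm of Ggt1 (0.10) and the difference of Slc7a7 (0.11) ended. DESeq2 added Pepd over all times (adjusted p = 0.046).

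When each library was left out in turn, the 39 genes gave 15 to 20 calls over all times (4 to 8 higher, 10 to 13 lower), 2 to 12 at CT1, 0 to 2 at CT5, 1 to 7 (CT9), 2 to 7 (CT13), 1 to 4 (CT17), 0 to 1 (CT21), 20 to 22 rhythms in control, 6 to 14 in knockout and 1 to 5 differences. Over all genes these were 3360 to 4327 (1702 to 2322 higher, 1580 to 2005 lower), 1319 to 4541, 69 to 156, 258 to 761, 327 to 680, 191 to 437, 129 to 364, 2748 to 3576, 1673 to 3600 and 185 to 308. Single libraries moved the counts of the 39 genes most in these cases. Over all times 4 were higher without knockout CT9 replicate 4. At CT1 there were 3 without control CT1 replicate 1, 2 without knockout CT1 replicate 1, and 12 without knockout CT1 replicate 4 or knockout CT21 replicate 4. At CT9 there was 1 without knockout CT9 replicate 3. At CT13 there were 2 without control CT13 replicate 2, and 3 without control CT13 replicate 1 or 4 or knockout CT13 replicate 2 or 3. At CT17 there was 1 without control CT17 replicate 3 or 4 or knockout CT17 replicate 1 or 4, and 4 without knockout CT21 replicate 4. Knockout rhythms were 6 without knockout CT9 replicate 2. Differences were 5 without knockout CT1 replicate 2 and 1 without knockout CT9 replicate 2 or 3. The causes were not tested. Depth limits Tmprss15, which was at or near the floor in many libraries.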

Other observations

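Of 28 genes of amino acid metabolism in enterocytes that were tested, 6 were higher and 1 lower in the knockout over all times by edgeR, that is 25% against 23.3% of all genes (5 higher and 1 lower without the 5 libraries). Aldh18a1, the first enzyme of proline synthesis from glutamate, rose from 242 to 366 CPM on average (log2 fold change 0.66, edgeR adjusted p = 8.0e-16). Otc, the urea cycle enzyme that makes citrulline in the gut, rose from 216 to 272 CPM (0.33, edgeR adjusted p = 6.4e-05). Both also passed without the 5 libraries, whereas Arg2, a mitochondrial arginase, rose from 291 to 329 CPM with all libraries (0.18, edgeR adjusted p = 0.013) and did not pass without them (0.065).

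Of 16 genes of the amino acid response and TOR signalling that were tested, 1 was higher and 2 were lower, 18.8% against 23.3% of all genes (1 higher and 3 lower of 17 without the 5 libraries). Trib3, a pseudokinase induced when amino acids are short, fell from 10.1 to 5.47 CPM (log2 fold change −0.81, edgeR adjusted p = 6.8e-06), and Psat1, an enzyme of serine synthesis, fell from 12.3 to 9.70 CPM (−0.33, edgeR adjusted p = 0.0049). Both also passed without the 5 libraries. Rptor, a subunit of the TOR complex, rose from 40.2 to 45.5 CPM (0.17, edgeR adjusted p = 0.0037) and did not pass without the 5 (0.071).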
